A study of Homo sapiens with 29 samples.

Results

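The regions described here are 875 stretches of chromatin that were called accessible in all 3 libraries of parental 22Rv1 cells given the stereoprobe WX-02-23 and in none of the other 12 parental libraries. They were taken from 166696 regions, made by merging overlapping or touching peaks of all 29 deposited lists, so they are 0.525% of the whole, and 0.644% of the regions that any parental library held. Accessibility was measured by ATAC-seq: a transposase inserts into DNA that nucleosomes leave free, and the fragments between insertions are sequenced. 22Rv1 is an established human prostate cancer cell line. Since the 15 parental peak lists chose these regions, their state in those lists is a description and carries no test. They are called the WX-02-23-only regions below, which refers to the parental lists alone, because part of them also had a peak in engineered cells that had not received WX-02-23.

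Parental cells, with no added gene, gave 3 libraries each after DMSO (0.1%), after WX-02-23 at 20 µM, after the same dose of its stereoisomer WX-02-43, and after pladienolide B (PladB) at 10 nM and PladB at 100 nM. The 14 libraries of engineered cells formed 7 groups with 2 replicates each, and all of these cells overexpressed Y36C-PHF5A. One line also carried doxycycline (Dox)-inducible WT-FOXA1 and was given Dox with DMSO, Dox with WX-02-23 (20 µM), Dox with PladB (100 nM), or DMSO without Dox. The other carried Dox-inducible C258A-FOXA1 and was given Dox with each of DMSO, WX-02-23 (20 µM) and PladB (100 nM). Compounds were given for 3 h, and how long Dox was given is not stated in the labels. The labels name no removal of the cells' own FOXA1 from either line, so C258A-FOXA1 would be present beside a protein that has the cysteine. A C258A-FOXA1 group without Dox was not analysed here, and Dox was therefore compared with no Dox in the WT-FOXA1 line alone. Nothing in the labels says whether replicates were separate cultures, so the spread between them may be technical. The peak names place the parental lists in one processing folder and the engineered lists in another, and any difference between the 2 kinds of cell cannot be told apart from a difference in that processing.

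FOXA1 is a forkhead transcription factor known as a pioneer: it can bind its sites on nucleosomal DNA and make room there for other factors, in prostate cells above all the androgen receptor. WX-02-23 is a covalent ligand that engages a cysteine of FOXA1, the residue that C258A removes. PladB binds the splicing factor SF3B1 next to PHF5A, and the Y36C change in PHF5A is known to blunt the action of such ligands on splicing. The engineered lines allow changes seen with WX-02-23 to be compared between FOXA1 with and without that cysteine.

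The lists held 82538 to 98193 peaks in parental and 62832 to 92658 in engineered libraries. The deposited lists carry no read totals, but the number of reads piled up at each summit could be recovered as a whole number from the deposited fold and p-value for 98.1% to 100% of the peaks of a list. The genome-wide background that the peak caller used was 0.546 to 1.502 reads per base over the 29 libraries, and 0.923 to 1.121 in the parental WX-02-23 libraries. The fewest summit reads in any called peak were 5 to 8 per library. A region without a peak may thus still be open below that limit.

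The WX-02-23-only regions were low peaks beside regions held by all 15 parental libraries. Over the 3 parental WX-02-23 lists, a member's mean summit height was 13 reads at the median, from 8 to 59.3. Divided by the genome-wide background of the library, this was 12.5 times the background at the median, with the middle 50% of members between 10.7 and 15.9 times and the highest at 57.6 times. Regions held by all 15 parental libraries stood at 33.1 times the background at the median in the same lists. Regions held by 3 parental libraries in any other combination were lower than the members. Their median was 10.5 times, over the 3314 of 6194 with a peak in at least 1 of these lists. Per library, the median height of the members was 12.5, 12.4 and 13.0 times the background in replicates 1, 2 and 3, which lay close together. The heights of the 875 members in pairs of these libraries had Spearman correlations of 0.628 to 0.640, given as a description, since the members of a library share its depth. The authors' fold enrichment over the local background, a value of the deposited lists, averaged 5.98 at the median member and 14.6 at the highest.

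**Figure D1:**
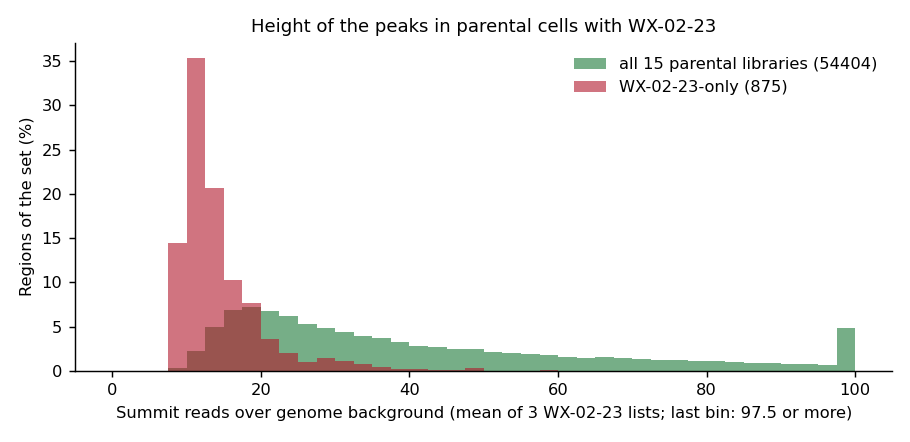
Height of peaks in parental cells given WX-02-23, as the percentage of regions (vertical axis) per bin of summit reads divided by the genome-wide background, averaged over 3 libraries (horizontal axis). The 875 WX-02-23-only regions (red) cluster near their median of 12.5 times the background, and the 54404 regions held by all 15 parental libraries (green) spread around a median of 33.1.

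How far these heights lay above what the other libraries could have called was computed for each member. The weakest p-value called in each list (its lowest −log10 p) and the local background of the member were used. Every one of the 875 members was higher, on average over the WX-02-23 libraries, than the highest such limit among the other 12 libraries, by 1.63 times at the median. For 598 members (68.3%) the height was at least 1.5 times that limit, for 176 (20.1%) at least 2 times and for 14 (1.6%) at least 3 times. Against the median limit of the 12 libraries, 451 members (51.5%) stood at least 2 times higher. These ratios assume the same local background in all libraries and do not cover a high stretch shorter than the narrowest peak that was called. Since the rule asked for no call in those same 12 lists, these ratios describe the members and test nothing. The lists do not show how much signal was there without WX-02-23.

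Within a member, the summits of the 3 WX-02-23 libraries lay within 100 bp of each other in 579 members (66.2%). The median span of the 3 summits was 76 bp, wider than the 48 bp in regions held by all 15 libraries. The strongest peaks of the 3 libraries shared bases in 859 members (98.2%), which the merging of overlapping peaks largely fixes. Members spanned 349 bp at the median, from 160 to 1213 bp, and 29 (3.31%) held more than 1 peak in some WX-02-23 list. Regions held by all 15 parental libraries spanned 660 bp at the median, and the 167 regions with the reverse pattern (0.123% of those held in parental cells), a peak in all 12 others and in no WX-02-23 library, 449 bp. Regions held by 3 parental libraries in any other combination were narrower than the members, with a median of 260 bp.

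The edge of the rule was populated. In 504 regions all 3 WX-02-23 libraries and 1 of the other 12 held a peak, and in 1273 regions 2 WX-02-23 libraries and none of the others did. Regions with 1 other library had a median height of 12.7 times the background, close to the 12.5 of the members, while those with 2 WX-02-23 libraries stood lower, at 10.6 times. The 1273 regions lacked a peak in replicate 1 in 328 cases, in replicate 2 in 493 and in replicate 3 in 452. Leaving out WX-02-23 replicate 2 raised the number of members from 875 to 1368, and leaving out replicate 3 raised it to 1327.

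Those same counts can be put as shares, by applying the rule to 14 parental libraries and looking up the result in the one left out. All 15 libraries chose the members, so these shares restate counts at the edge of the rule and are no independent check. The regions that a left-out WX-02-23 library held are the 875 members themselves. When a WX-02-23 library was left out, it held 72.7% (replicate 1), 64.0% (replicate 2) and 65.9% (replicate 3) of the regions defined by the other 14. When a DMSO library was left out, it held 2.34%, 5.30% and 3.85% of its set in replicates 1, 2 and 3. The range was 2.67% to 5.51% for PladB 10 nM and 1.35% to 2.99% for PladB 100 nM. The WX-02-23 libraries averaged 67.5% ± 4.6 (SD, n = 3) and did not overlap with any other library. The counting error on each share, as the 95% Wilson interval, was 70.1% to 75.2% for the first WX-02-23 library and 1.54% to 3.56% for the first DMSO library. It covers counting error only.

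The stereoisomer WX-02-43, given at the same dose and time, did not behave alike in its 3 libraries. Left out of the rule, replicates 1 and 2 held 11.1% and 11.3% of their sets, above every DMSO and PladB library, and replicate 3 held 1.57%. The mean was 7.97% ± 5.54 (SD, n = 3), against 3.83% ± 1.48 (SD, n = 3) for DMSO, and the 2 groups overlapped. All 3 WX-02-43 libraries lay below the 3 WX-02-23 libraries, the lowest of which held 64.0%. These shares come from the calls that chose the members, so the order is no test of the stereoisomers. The WX-02-23 shares count the members themselves, and the WX-02-43 shares only regions at the edge of the rule. WX-02-43 replicate 3 had the highest background of all parental libraries, 1.502 reads per base, with 83748 peaks, against 0.966 and 1.119 with 96471 and 98079 peaks in replicates 1 and 2. The part of this difference in the low share was not tested. Of the 504 regions held by a single other library, 109 and 111 were held by WX-02-43 replicates 1 and 2 and 14 by replicate 3, with 12 to 51 for each DMSO or PladB library.

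**Figure D2:**
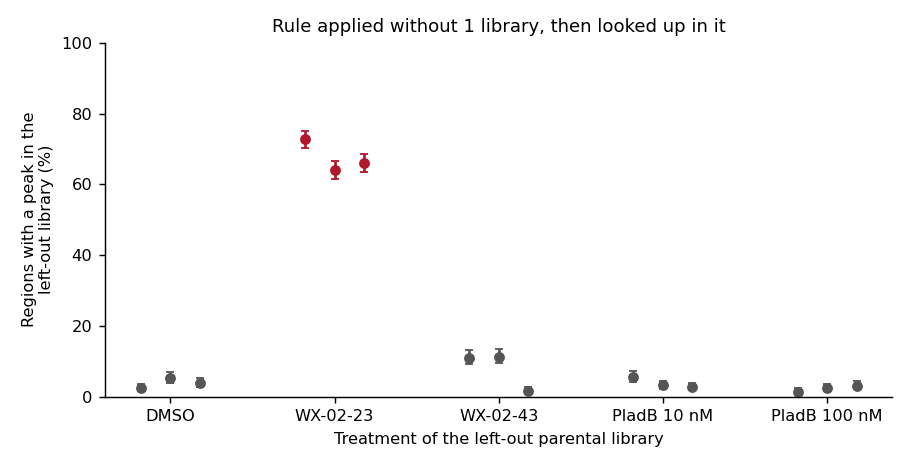
Share of regions with a peak in the parental library that was left out of the rule (vertical axis, %), by treatment of that library (horizontal axis); each point is 1 library and bars are 95% Wilson intervals for counting error. The 3 WX-02-23 libraries lie between 64.0% and 72.7%, and the other 12 between 1.35% and 11.3%. These shares restate counts at the edge of the rule and test nothing.

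Whether an engineered library held a peak was not used to choose the members, although engineered peaks helped to set the bounds of the merged regions, and regions merged from parental lists alone gave 883 members. In the WT-FOXA1 line with Dox and DMSO, 166 and 153 of the 875 regions had a peak in replicates 1 and 2. With WX-02-23 these numbers were 331 and 276. As shares of the members this is 18.2% ± 1.05 (SD, n = 2) with DMSO and 34.7% ± 4.4 (SD, n = 2) with WX-02-23, a difference of 16.5 percentage points (SE 3.23), and the 2 groups did not overlap. The WX-02-23 lists of this line were the shorter ones, with 67815 and 62832 peaks against 88140 and 85009 with DMSO, and over all regions the share with a peak was 48.1% with DMSO and 35.9% with WX-02-23. With all lists cut to the length of the shortest, the rule was applied anew and chose its own members. In that set, which is not the 875, the difference was 37.3 points. Without parental WX-02-23 replicate 2, which enlarges the set, the difference was 10.5 points.

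In the C258A-FOXA1 line, 111 and 134 members had a peak with Dox and DMSO and 246 and 341 with WX-02-23. The shares were 14% ± 1.86 and 33.5% ± 7.7 (SD, n = 2 each), a difference of 19.5 points (SE 5.59), again with no overlap. Over all regions the shares were 47.5% and 46.9%. Within the WX-02-23 pair the higher share came with the longer list, of 92658 peaks against 76645. Under WX-02-23 the 2 lines overlapped, at 31.5% and 37.8% with WT-FOXA1 and 28.1% and 39.0% with C258A-FOXA1, and whether they differ was not tested. With 2 libraries per group, the smallest two-sided exact permutation p for one group against another is 0.333, and none was computed. The regions with the reverse parental pattern did not overlap between the lines in the same libraries: 5.39% and 4.19% of the 167 had a peak in the WT-FOXA1 line given WX-02-23, and 29.9% and 38.3% in the C258A-FOXA1 line.

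Counted region by region, 85 members were gained in the WT-FOXA1 line, meaning a peak in both WX-02-23 libraries and in neither DMSO library with Dox. That is 20.7% of the 410 members with a peak in any of these 4 libraries, where 1.31% of all regions tested this way were gained. In the opposite direction 7 members (1.71%) were lost, where 11.7% of all regions were. The C258A-FOXA1 line also gained 85 members, 21.4% of 397, beside 2.37% of all regions, and lost 2 (0.504%), beside 2.55%. Of the members gained in each line, 24 were the same, which is 28.2% of either list. Over all regions 157 were gained in both lines, 12.2% of those gained in the WT-FOXA1 and 6.41% of those gained in the C258A-FOXA1 line. A peak in both WX-02-23 libraries, whatever the DMSO libraries held, was found in 222 members with WT-FOXA1 and 203 with C258A-FOXA1, of which 134 were shared (60.4% and 66.0%). Over all regions such a peak was found in 50326 (30.2%) and 64951 (39.0%), beside 25.4% and 23.2% of the members. All 4 WX-02-23 libraries held a peak in 46181 of all regions (27.7%), beside 15.3% of the members. Leaving out a library loosens the call, so these counts could only stay or rise. Without its WX-02-23 replicate 2 the gained members of the WT-FOXA1 line were 169. Without WX-02-23 replicate 1 those of the C258A-FOXA1 line were 197. The small lost counts rose in the same way, to 14 to 18 when any of the 4 libraries of the WT-FOXA1 line was left out. In the C258A-FOXA1 line they rose to at most 10. With lists of equal length, where the rule chose its own members, the WT-FOXA1 count was 153 and the C258A-FOXA1 count 84. The share of all regions gained is not given at that setting, so these counts do not compare the lines. Regions held by 3 parental libraries in any other combination, 6194 in all, gained 12 (0.959% of 1251 tested) and lost 188 (15.03%) in the WT-FOXA1 line, and gained 58 (4.02% of 1441) and lost 62 (4.30%) in the C258A-FOXA1 line.

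**Figure D3:**
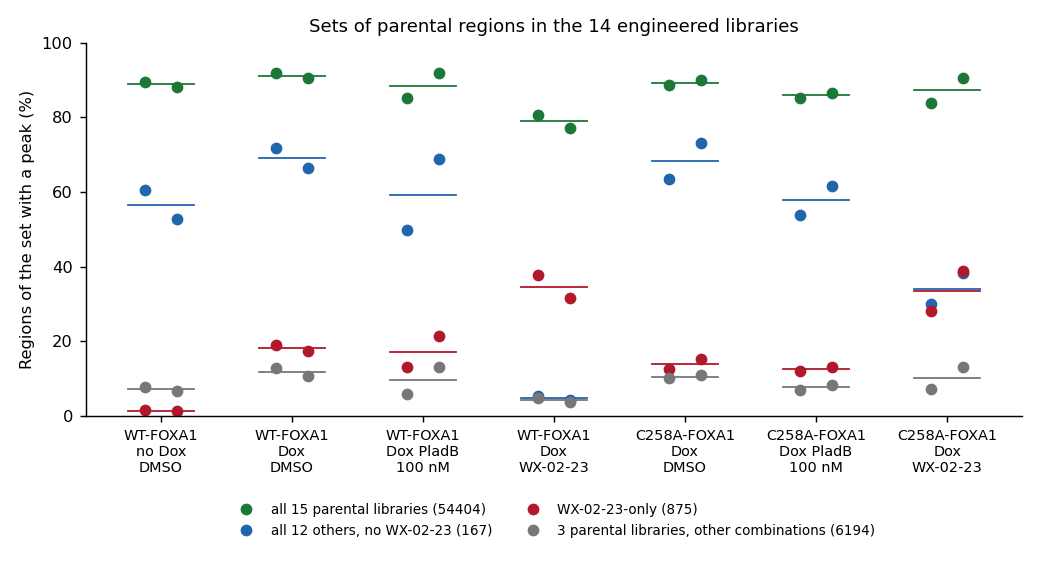
Share of 4 sets of parental regions with a peak (vertical axis, %) in each of the 14 engineered libraries (points), by line and treatment (horizontal axis), with a bar at the mean of the 2 libraries. WX-02-23-only regions (red) stand at 1.26% and 1.49% without Dox, at 12.7% to 19.0% with Dox and DMSO, and at 28.1% to 39.0% with WX-02-23; the set of 167 with the reverse pattern (blue) is at 4.19% and 5.39% in the WT-FOXA1 line with WX-02-23.

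With PladB the share of members with a peak overlapped that with DMSO in both lines. In the WT-FOXA1 line 115 and 187 members had a peak with PladB, a share of 17.3% ± 5.8 (SD, n = 2), and the difference from DMSO was -0.971 points (SE 4.18). For C258A-FOXA1 the numbers were 105 and 115, a share of 12.6% ± 0.81 (SD, n = 2), and the difference was -1.43 points (SE 1.43). The lists with PladB held 71121 to 88735 peaks. Over all regions the share with a peak in the WT-FOXA1 line was 44.2% with PladB and 48.1% with DMSO. In the C258A-FOXA1 line it was 41.7% with PladB and 47.5% with DMSO. By region, PladB gained 8 and lost 9 of 248 members tested in the WT-FOXA1 line (3.23% and 3.63%, beside 0.915% and 3.05% of all regions). It gained 2 and lost 9 of 197 in the C258A-FOXA1 line (1.02% and 4.57%, beside 0.806% and 4.67%). These comparisons use the same DMSO libraries as those of WX-02-23.

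Members also differed between Dox and no Dox. Without Dox, 13 and 11 of the 875 members had a peak in the WT-FOXA1 line, a share of 1.37% ± 0.16 (SD, n = 2). With Dox and the same vehicle the share was 18.2%, a difference of 16.9 points (SE 0.752), and the groups did not overlap. By region, 110 members were gained with Dox, 51.4% of the 214 tested, where 13.2% of all regions were gained. No member was lost, where 1.1% of all regions were. Leaving out single libraries, which loosens the call, gave up to 7, the most without no Dox replicate 2. The no Dox lists were shorter, at 69814 and 67195 peaks, than those with Dox, at 88140 and 85009. With lists of equal length, where the rule chose its own members, the Dox difference was 14.7 points. For comparison, 88.9% of the regions held in every parental library had a peak without Dox and 91.2% with Dox, of the 6194 regions of other combinations 7.25% and 11.9%, and of all regions 37.5% and 48.1%. Without Dox, then, 98.5% and 98.7% of the members had no peak, and with Dox part of them had one without any WX-02-23. Dox and the FOXA1 it induces cannot be told apart in these libraries.

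Among the Dox vehicle libraries the lines also differed somewhat: 18.2% of members had a peak with WT-FOXA1 and 14% with C258A-FOXA1, a difference of 4.23 points (SE 1.51) without overlap. In the vehicle libraries 29 members had a peak in both WT-FOXA1 and neither C258A-FOXA1 library (12.1% of 240, beside 3.82% of all regions), and 11 the reverse (4.58%, beside 3.7%). Under WX-02-23 the corresponding counts were 41 (8.33% of 492, beside 1.4%) and 24 (4.88%, beside 10%).

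Sorting the 875 members by their state in the 14 engineered libraries gave 4 classes. No engineered library held a peak in 357 (40.8%), beside 25.2% of all 166696 regions and 61.1% of the 6194 regions of other combinations. In 227 (25.9%) a peak was found in at least 1 of the 4 WX-02-23 libraries and in none of the other 10. In 265 (30.3%) both kinds of library held one, and in 26 (2.97%) libraries without WX-02-23 alone did. Over all regions these 3 classes made up 4.99%, 53.6% and 16.2%. All 4 WX-02-23 libraries and none of the other 10 held a peak in 22 members, of 93 such regions in the whole series. By the number of engineered libraries, 127 members were held by 1, between 13 and 25 by each number from 6 to 11, 41 by 12, 1 by 13 and none by all 14. The members held by 12 were 4.69% of the set, close to the 4.33% of all regions held by 12. All 14 held 22.4% of all regions. Of the 41 members held by 12 libraries, 39 were held by exactly the 12 Dox libraries and by neither no Dox library. These 39 are 4.46% of the members, beside 1.98% of all regions (3307) and 0.565% of the regions of other combinations. Regions of other combinations with a peak in a parental WX-02-23 list stood at 10.5 times the background at the median, against 12.5 for the members. The sets were not matched for height. With lists of equal length the rule chose its own members, of which 22.9% had no engineered peak.

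**Figure D4:**
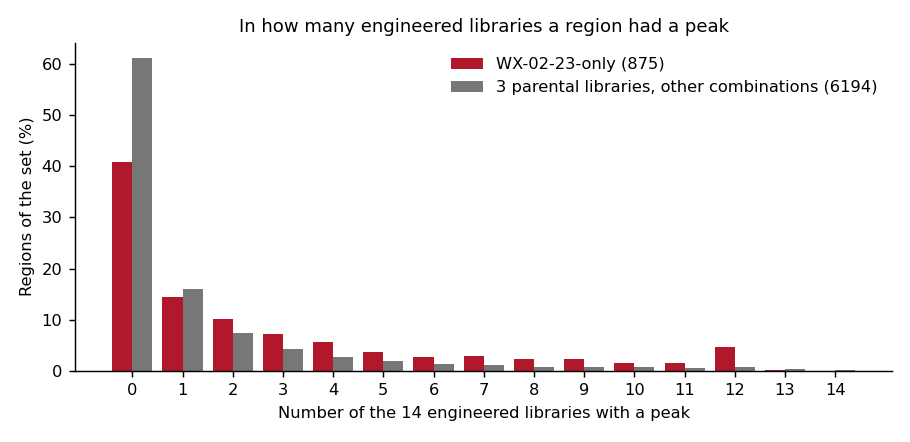
Percentage of regions (vertical axis) by the number of the 14 engineered libraries that held a peak in them (horizontal axis), for the 875 WX-02-23-only regions (red) and the 6194 regions held by 3 parental libraries in another combination (grey). The red bars stand at 40.8% at 0, 1.6% at 11 and 4.69% at 12 libraries, and the grey bar at 12 is 0.743%. Over all regions, which are not drawn, the shares at 0, 11 and 12 libraries are 25.2%, 2.85% and 4.33%. The sets were not matched for peak height.

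The 39 members held by every Dox library and by neither no Dox library were picked by their engineered peaks, so their heights there are a description. Their median height was 15.9 to 24.7 times the background over the 12 Dox libraries, and 12.4 to 14.1 times in the 3 parental WX-02-23 libraries. Their median width was 532 bp, against 307 bp for the 357 members with no engineered peak. The region's width includes engineered peaks, which can extend it.

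Members ranked highest in parental cells were more often found in the engineered Dox libraries, with WX-02-23, DMSO or PladB, than those ranked lowest. This was not so in the libraries without Dox, and none of it was tested. Of the 218 members ranked highest by the authors' p-value in the parental WX-02-23 lists (mean of 3 within-list percentiles), 55.5% had a peak in WT-FOXA1 cells given WX-02-23 and 50% in C258A-FOXA1 cells given it, as means of 2 libraries. The 219 ranked lowest gave 18.04% and 19.4%. With Dox and DMSO the highest and lowest members gave 23.9% and 11.0% in the WT-FOXA1 line, and without Dox 1.15% and 2.05%. With Dox and PladB they gave 20.9% and 10.7% in the WT-FOXA1 line and 15.8% and 6.39% in the C258A-FOXA1 line. No engineered library held a peak in 23.9% of the highest and 61.2% of the lowest members. Where an engineered library did hold a peak, its summit was 33.7 to 42.3 bp at the median, by group, from the mean parental summit, a distance that the overlap with a region of this width limits.

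The members were scattered over the genome. The nearest other member lay 982221 bp away at the median. Chaining members with gaps of up to 50 kb put 45 of them (5.14%) into 22 clusters, of which the largest held 3, and 830 stood alone. At 10 kb there were 3 pairs, and at 500 kb 278 members (31.8%) formed 123 clusters with at most 7. Between neighbouring members on a chromosome lay 29 regions held by all 15 parental libraries at the median, and in 28 of 852 neighbour pairs there was none. The distance between members depends on their number, and without WX-02-23 replicate 3, with 1327 members, it was 633813 bp.

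Distances to chromatin that was open in every parental library are given beside those of other sets. The nearest region held by all 15 parental libraries was 18592 bp away at the median, with the middle 50% of members between 6203 and 46355 bp. Within 150 bp of such a region lay 17 members (1.94%), within 1 kb 75 (8.57%), within 10 kb 295 (33.7%), and beyond 100 kb 82 (9.37%). For regions of other combinations these shares were 4.81%, 11.3%, 38.8% and 6.62%, and from one region held by all 15 libraries to the next 3.54%, 9.82%, 42.9% and 4.09%. Within 1 kb lay 3.59% of the regions with the reverse pattern. The regions with the reverse pattern had nearly the same median, 18984 bp, and regions of other combinations 15464 bp. Among regions held by all 15 libraries the median to the next was 12663 bp. With lists of equal length, which leave fewer regions held by all 15 and another set of members, the members' median was 30379.5 bp. The nearest region of any kind, held by at least 1 of the 29 libraries, was 4211 bp away at the median.

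Chromosomes differed in how many members they held. Over the genome there were 16.1 members per 1000 regions held by all 15 parental libraries. Chromosome 5 had the most, 24.7 (69 members), followed by chromosome 13 with 22.4 (30) and chromosome 3 with 22.3 (74). Chromosome 19, known as the most gene-dense, had the fewest among chromosomes with members, 2.46 (6 members beside 2435 shared regions), then chromosome 22 with 5.42 (6) and chromosome 17 with 8.66 (21). The Y chromosome had none beside 91 shared regions. Regions of other combinations numbered 67.8 per 1000 on chromosome 19, 123.3 on chromosome 5 and 113.9 over the genome. These densities are descriptions, and genes and promoters were not placed on these coordinates here.

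**Figure D5:**
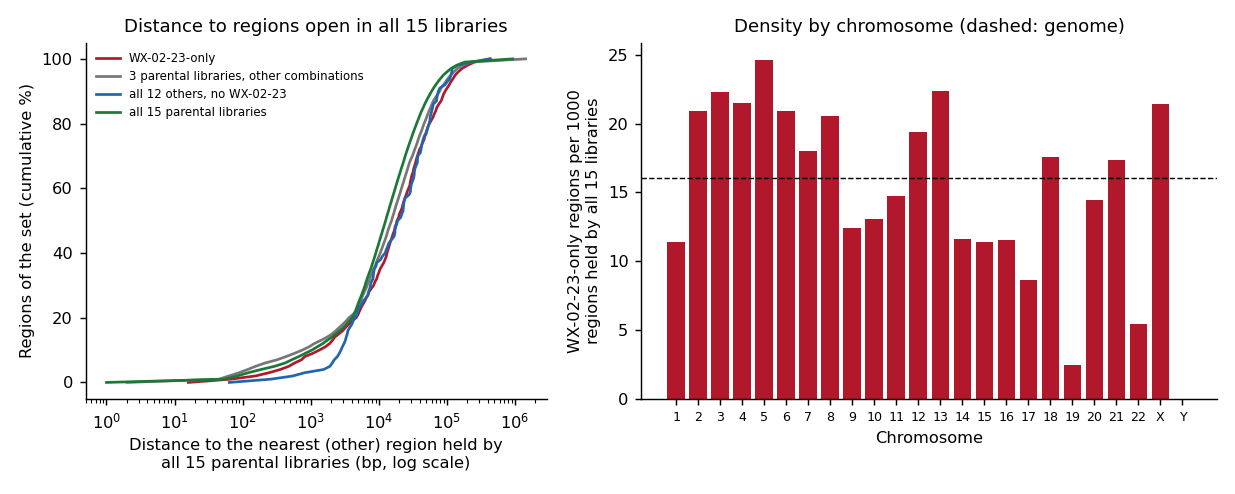
Left, cumulative percentage of regions (vertical axis) by distance in bp to the nearest region held by all 15 parental libraries (horizontal log axis; for that set itself, the nearest other one), for 4 sets; the red line of WX-02-23-only regions crosses 50% at 18592 bp. Right, WX-02-23-only regions per 1000 regions held by all 15 libraries (vertical axis) by chromosome (horizontal axis), with the genome value of 16.1 dashed; chromosome 19 is lowest of those with members at 2.46 and chromosome 5 highest at 24.7.

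Single members show these patterns in reads. All coordinates are of build hg19, and positions count from 1. The member with the highest rank in the parental WX-02-23 lists lay at chr13:105137921-105138565. Its summit held 51, 34 and 31 reads in parental WX-02-23 replicates 1, 2 and 3, with an authors' fold of 14.6 ± 2.6 (SD, n = 3). With WX-02-23 there were 24 reads in both replicates of the WT-FOXA1 line and 17 and 32 in those of the C258A-FOXA1 line. None of the other 10 engineered libraries had a peak. The same pattern, all 4 engineered WX-02-23 libraries and no other, held for 3 of the 10 highest members, the others being chr8:84625929-84626426 (32, 26 and 22 parental reads, 22 and 20 with WT-FOXA1, 11 and 16 with C258A-FOXA1) and chr13:27083844-27084585 (24, 30 and 31 parental reads, 25 and 26 with WT-FOXA1, 15 and 28 with C258A-FOXA1). The next by rank were chr10:54434182-54434673, with 25, 21 and 23 reads in parental cells and 13 to 14 in the engineered libraries, and chr11:103646352-103646915, with 22, 21 and 19 reads in parental cells and 8 to 21 in the engineered ones.

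Height in parental cells did not fix the state in engineered cells. The second member by rank, chr10:63090300-63090898, had 46, 31 and 31 reads in the parental WX-02-23 libraries. It was found in 1 WX-02-23 library of each engineered line, with 10 reads in both. The members at chr17:80019289-80019693, with 69, 54 and 55 reads, and at chr2:49952184-49952599, with 23, 26 and 25 reads, had no peak in any engineered library. The first of these lay on a high local background, where the authors' fold was 5.89 ± 0.23 (SD, n = 3). The second had a fold of 12.7 ± 1.2 (SD, n = 3) and lay 233881 bp from the nearest region held by all 15 libraries. By contrast chr12:64446781-64447506, with 35, 23 and 21 reads in the parental libraries, had a peak in 11 of the 12 Dox libraries, with 10 to 24 reads, and in neither no Dox library. The remaining members of the first 10 were held by 3 or all 4 engineered WX-02-23 libraries and by at most 1 other. The one at chr21:19514951-19515610 had 37, 29 and 25 reads in parental cells, 22 and 30 with WT-FOXA1, 16 and 17 with C258A-FOXA1, and 11 in 1 DMSO library of the WT-FOXA1 line. The one at chr8:56784170-56784656 had 39, 28 and 42 reads in parental cells, 15 and 19 with WT-FOXA1 and 14 in 1 library with C258A-FOXA1. The one at chr12:102232769-102233250 had 37, 27 and 29 reads in parental cells, 20 in both libraries with WT-FOXA1, and 13 and 16 with C258A-FOXA1.

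Some members were called in one line. In 21 members the WX-02-23 pair of the WT-FOXA1 line held a peak and none of the other 12 engineered libraries did, and in 14 members the same was true of the C258A-FOXA1 line. Over all regions these patterns were found in 378 (0.227%) and 454 (0.272%). The highest of the former was chr12:28274482-28275194, with 33, 28 and 30 reads in parental cells and 16 and 13 in the WT-FOXA1 line. It was followed by chr3:80939848-80940504, chr5:34491477-34491770, chr5:90174434-90174931 and chr12:63293311-63293672, with 9 to 20 reads in that line. The highest for C258A-FOXA1 was chr5:108299988-108300339, with 19, 16 and 15 reads in parental cells and 11 and 13 in that line. The next were chr7:122448920-122449277, chr12:62527330-62527760, chr6:38902806-38903231 and chr13:71169379-71169673, with 8 to 15 reads. Counts of this size are close to the limit of 5 to 8 reads, and no test of a single region was run.

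The largest cluster, of 3 members on chromosome 20, was not uniform. The member at chr20:30916340-30916588 had 30, 26 and 25 reads in the parental libraries on a high background (fold 3.03 ± 0.045, SD, n = 3) and, among engineered libraries, a peak in the WX-02-23 pair of the WT-FOXA1 line alone, with 20 and 18 reads. The member at chr20:30959948-30960229, with 11, 11 and 14 reads, had no engineered peak. The third, at chr20:30978904-30979271, with 14, 11 and 9 reads, had one in 8 Dox libraries.

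The following members mark the extremes. The widest, chr11:83841295-83842507 (1213 bp), was also the one held by the most engineered libraries, 13. It had 19, 19 and 17 reads in the parental WX-02-23 libraries, 27 to 39 in the 12 Dox libraries, 16 in no Dox replicate 2 and no peak in no Dox replicate 1. The narrowest, chr16:57220791-57220950 (160 bp), had 34, 37 and 34 parental reads on a high local background (fold 3.00 ± 0.22, SD, n = 3) and no engineered peak. It lay 55 bp from a region held by all 15 libraries. The nearest to such a region, chr7:152371921-152372278, was 16 bp from it. This member had 39, 33 and 25 parental reads, also on a high local background (fold 3.65 ± 0.63, SD, n = 3). It had a peak of 22 reads in 1 engineered library, WT-FOXA1 with WX-02-23. The farthest, chr9:69820780-69821021, was 438822 bp away and had 14, 15 and 12 reads in parental cells and no engineered peak.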

How the data were processed

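Bowtie2, MACS2 and build hg19 are named, without versions or options, in the submitters' processing notes. The authors deposited 1 peak list per library with a score, a fold ratio over local background, −log10 p and −log10 q values and the summit position. The deposited −log10 q is at least 2 in every list. Presence of a peak (1 bp overlap with a merged region, all but chrM) was the measure compared. Summit reads were solved from the deposited fold and −log10 p-value by the MACS2 Poisson formula (tolerance 0.001 in −log10 p). Lists were compared by counts and shares, with no test, and the members, lists and named regions were chosen with earlier results of these data known. Named regions are the first 10 by mean percentile of p in the parental WX-02-23 lists, the first 5 of each engineered WX-02-23 pattern, the largest cluster and the extremes. With 200 planted regions among 166021, the rule recovered 100% at full detection and 70.0% at a rate of 0.9 per library, where 72.9% follows. The planted peaks were put back within the bounds of members, so this checks the code alone and not how the rule does on real lists. No hg19 genome or annotation was used here, so sequences, motifs and genes were not analysed here. Tools were pandas 2.3.3, numpy 2.4.6 and scipy 1.17.1 under Python 3.11.15, with bedtools 2.31.1 as a check of merging and distances and matplotlib 3.10.9 for plots.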

Additional observations from a re-analysis of the deposited data

How the results depend on the processing

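No paired analysis was possible because the results come from no test. Of 80 values under other settings, 65 stayed within the limits (1.5 times for counts, the spread for shares, the 95% interval for medians), 15 moved and none reversed; the Dox results and their alternatives were added after seeing the data. Under the other settings the rule was applied anew and chose its own members. Allowing 1 other library gave 1379 members, and allowing 1 WX-02-23 library to lack a peak 2148. Lists of equal length gave a change of 37.3 points with WX-02-23 in the WT-FOXA1 line, 153 gained and 1 lost there, 1 lost in the C258A-FOXA1 line, 14.7 points and 4 lost with Dox, 22.9% without an engineered peak, and medians of 1371026 bp to the next member and 30379.5 bp to a region held by all 15 libraries. A −log10 q of 5 or more gave 18.1 points and 1 lost with Dox and a median of 23562 bp; summit windows gave 1 lost with Dox. Leaving out each library in turn gave 887 to 1368 members, 39.7% to 48.0% without an engineered peak, 16856 to 18789.5 bp to a region held by all 15 and 633813 to 992841 bp to the next member. In the WT-FOXA1 line it gave 85 to 169 gained, 7 to 18 lost and 10.5 to 19.6 points, in the C258A-FOXA1 line 85 to 197, 2 to 10 and 14.1 to 24.97 points, and with Dox 111 to 158, 0 to 7 and 14.5 to 17.9 points. Leaving out a library loosens the rule or the call, so the counts of members, gained and lost could only stay or rise. The number of engineered libraries at the named regions stayed the same in 73 of 87 cases. Low depth limits any call on regions near 5 to 8 summit reads.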
